A study of Drosophila melanogaster with 3 samples.

Results

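Most peaks of CG32006-GFP in Drosophila prepupae had AT-rich summits, and the minority with GC-rich summits is described here. A summit is the position of highest signal in a peak. A peak was counted as GC-rich when the window reaching 50 bp to either side of its summit held at least 45% G+C in the Release 6 (dm6) genome, a rule that uses sequence only. Of the 11665 peaks in the authors' optimal list, 1137 met it (9.75%, Wilson 95% interval 9.22 to 10.3%), and the other 10528 served as the comparison. Where these others are called AT-rich, it means only that they were below 45% G+C. The mean over windows of the genome was 42.2%. All values come from whole prepupae, males and females together, of 1 transgenic Drosophila melanogaster line that stably expressed CG32006 with a C-terminal GFP. Chromatin was sheared by sonication and precipitated with an antibody against GFP, followed by sequencing (ChIP-seq). The labels name 3 biological replicates, no second condition, and an age of 48 days, which is not that of a prepupa. Whole animals were used, so that tissues cannot be told apart.

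CG32006 has FoxJ1 among its synonyms in the RefSeq gene table, which places it by name among the forkhead proteins. These transcription factors bind DNA through a winged-helix domain and recognise AT-rich sequences related to TGTTTAC, and FoxJ1 is known in vertebrates as a regulator of genes for motile cilia. In Drosophila, GC-rich stretches are typical of coding exons, and several classes of promoter carry elements with high G+C. Among proteins that bind Drosophila promoters, the GAGA factor recognises GAGAG repeats, M1BP recognises GGTCACACT, and DREF recognises TATCGATA, which is itself mostly A and T.

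The summit windows of 9 GC-rich peaks and of 2 AT-rich peaks are printed as examples. The groups were separated by the G+C rule itself, so the windows are a description. The first 4 are the strongest GC-rich peaks among those whose sequence is printed, the next 2 are the highest in G+C among the members supported by all 3 replicates whose sequence is printed, and the last 2 are the strongest of the summits below 45% printed here. The windows at RpLP0, RpL4 and the non-coding gene lncRNA:CR46006 were chosen after their values were seen, as examples of ribosomal protein promoters and of a GAGAG-type repeat. All sequences are from the RefSeq Release 6 genome, and capitals mark every match to any of 20 searched motifs on either strand.
MFS10 promoter (chrX:13131311-13131411, plus strand): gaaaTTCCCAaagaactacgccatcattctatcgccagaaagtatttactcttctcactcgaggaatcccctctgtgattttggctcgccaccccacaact
mrt promoter (chr3R:27281171-27281271, plus strand): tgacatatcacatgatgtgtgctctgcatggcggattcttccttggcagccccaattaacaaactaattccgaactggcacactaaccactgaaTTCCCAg
between genes, nearest to CG46467 and Glut4EF (chr3R:9873910-9874010, plus strand): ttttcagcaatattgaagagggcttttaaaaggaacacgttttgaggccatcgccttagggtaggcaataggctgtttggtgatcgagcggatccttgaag
between genes, nearest to tara (chr3R:16222433-16222533, plus strand): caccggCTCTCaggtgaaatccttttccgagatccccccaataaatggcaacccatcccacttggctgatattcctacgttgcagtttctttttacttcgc
SelR coding exon (chr3R:10863606-10863706, plus strand): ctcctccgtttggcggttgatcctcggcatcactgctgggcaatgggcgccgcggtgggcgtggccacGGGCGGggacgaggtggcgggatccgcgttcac
Kdm2 promoter (chr3R:9053089-9053189, plus strand): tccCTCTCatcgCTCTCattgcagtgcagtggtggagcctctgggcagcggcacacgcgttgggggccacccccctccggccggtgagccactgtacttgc
RpLP0 promoter (chr3L:22076009-22076109, plus strand): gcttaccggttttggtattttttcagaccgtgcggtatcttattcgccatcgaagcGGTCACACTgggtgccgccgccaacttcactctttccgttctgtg
RpL4 promoter (chr3R:27922723-27922823, plus strand): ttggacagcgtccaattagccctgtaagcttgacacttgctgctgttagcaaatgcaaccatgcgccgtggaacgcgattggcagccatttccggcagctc
lncRNA:CR46006 (chr3L:10325660-10325760, plus strand): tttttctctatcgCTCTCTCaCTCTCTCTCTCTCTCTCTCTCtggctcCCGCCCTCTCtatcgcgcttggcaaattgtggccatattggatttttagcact
ush intron, below 45% (chr2L:481030-481130, plus strand): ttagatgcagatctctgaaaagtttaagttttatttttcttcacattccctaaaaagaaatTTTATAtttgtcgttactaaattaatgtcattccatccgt
CG14100 promoter, below 45% (chr3L:19590565-19590665, plus strand): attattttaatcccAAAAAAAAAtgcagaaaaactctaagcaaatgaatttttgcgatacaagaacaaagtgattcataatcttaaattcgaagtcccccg

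In the MFS10 and mrt windows the capitals are a TTCCCA, the reverse complement of TGGGAA. The Kdm2 window holds CTCTC 2 times and the lncRNA:CR46006 window is dominated by it, which is GAGAG on the other strand. RpLP0 carries a full GGTCACACT. Of the AT-rich windows, that at ush has TTTATA in capitals, the reverse complement of TATAAA, and that at CG14100 a run of A. The Glut4EF and RpL4 windows contain none of the 20 motifs.

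GC-rich summits were scarcer in the peak list than in the genome. Of all non-overlapping windows of the same length on the 6 chromosome arms, 40.1% reached 45% G+C, against 9.75% of the optimal summits. In the 11665 strongest peaks of each replicate's own list the share was 10.7%, 11.2% and 9.65% for replicates 1, 2 and 3 (10.5% ± 0.813, SD, n = 3). Among the 18335 pooled regions below the optimal list it was 33.6%. The members' G+C ran from 45.5 to 75.2% with a median of 49.5%, and that of the other summits from 4.95 to 44.6% with a median of 30.7%. Summits lay next to the threshold on both sides. The 128 members with the lowest G+C, at 46 G or C bases a window, had a median signal of 306. The 160 peaks with 1 base fewer had 351. The signal is the authors' own value on a scale not stated, and it was compared only within a list.

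**Figure D1:**
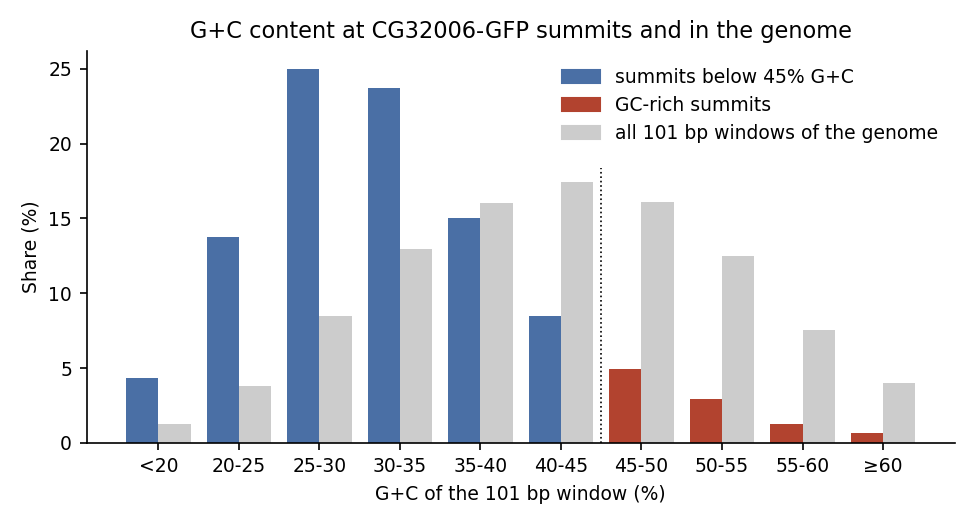
Share of the 11665 optimal summits (blue below 45% G+C, red at or above) and of all windows of that length in the genome (grey) in each bin of G+C, with the dotted line at the 45% threshold. The summits peak at 25 to 30% G+C and the GC-rich ones make up 9.75% of the list, where the genome has 40.1%.

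The lists have a feature of geometry that touches this group more than the rest. Of the GC-rich summits, 341 (29.99%, Wilson 27.4 to 32.7%) had a stronger summit within 300 bp, and of the others 863 (8.197%, 7.69 to 8.74%); such summits are called satellites here. In 336 of the 341 the stronger summit lay to the left, at the lower coordinate, and in 5 to the right, and in the others the split was 844 to 19. The distance was nearly constant, with a median of 204 bp and 90% of values between 199 and 242 bp in the GC-rich group. Farther away, beyond 300 and up to 1000 bp, the sides were nearly even at 67 left and 69 right. Each replicate's own list had the same one-sided arrangement, with GC-rich satellites 427 to 2, 273 to 9 and 442 to 3, and their share was 34.3%, 21.5% and 39.5%. The orientation of the genome sequence is arbitrary, and the cause of the preference for a side was not tested. The main comparisons of location, signal, support, gene lists and GAGAG are given with and without satellites, a division made after the data were seen, and the other results include them.

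The G+C around satellites differed from that around the remaining members, which follows in part from how satellites were defined. Their stronger summit lay at a median of 204 bp, to the left in 336 of the 341, and most summits are below 45% G+C. The values at the summit follow from the 45% rule in both groups. Around the 341 satellites the mean G+C in 21 bp was 51.3% at the summit, 30.4% at 200 bp to the left and 45.3% at 200 bp to the right. Around the other 796 members it was 51.5% at the summit, 43.9% to the left and 43.8% to the right, close to symmetric. A window below 33% G+C lay within the peak in 92.4% of the satellites and 57.2% of the other members, and in 96.0% of the peaks below 45%. Peak coordinates shared with another row were also commoner, in 115 members (10.1%) against 358 of the 10528 others.

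**Figure D2:**
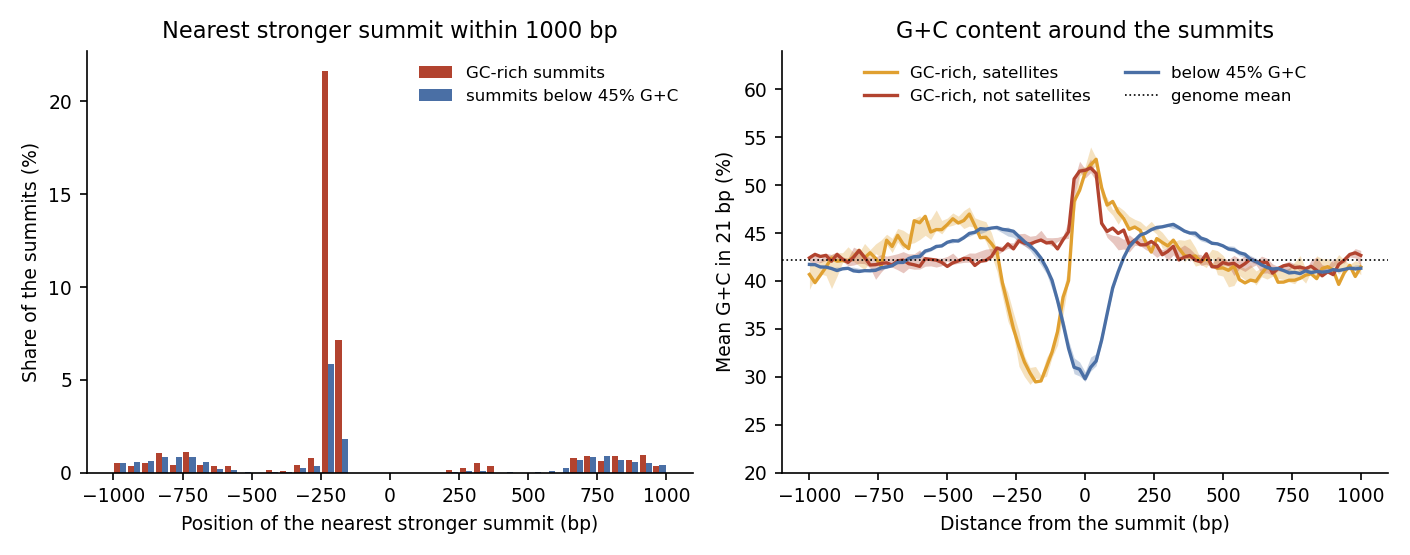
Left, position of the nearest stronger summit within 1000 bp, in bins of 50 bp, as a share of the GC-rich (red) and other (blue) summits of the optimal list; negative is the lower coordinate. Right, mean G+C in 21 bp windows against distance from the summit for GC-rich satellites (orange), other GC-rich summits (red) and summits below 45% (blue), with bands of the replicate mean ± SD (n = 3) and the genome mean dotted; the orange curve falls to 30.4% at 200 bp to the left and the red one does not.

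GC-rich summits lay at promoters more often than the others. Of the members, 399 (35.1%) had a protein-coding transcription start site (TSS) no more than 500 bp away, against 2277 (21.6%) of the rest, a difference of 13.5 percentage points (Newcombe 95% interval 10.6 to 16.4), where 22.9% of all optimal summits were promoter-proximal. GC-rich windows of the genome are at promoters in 12.5% of cases. The difference was 12.3, 10.8 and 12.8 points in the lists of replicates 1, 2 and 3 (11.96 ± 1.02, SD, n = 3). An exact two-sided sign-flip permutation test over 3 replicates gave p = 0.25, the smallest it can give, here and for the overall comparisons of signal and support below, with and without satellites. Intervals cover counting error only, and neighbouring peaks are not independent. Satellites were at promoters in 21.1% of cases and the other members in 41.1%, so that without satellites in either group the difference was 19.95 points (16.5 to 23.5), and 17.3 ± 3.80 (SD, n = 3) over replicate lists. In both versions every replicate had the higher share in the GC-rich group.

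Within promoters the GC-rich summits were closer to the TSS and more often past it. Their median position relative to the TSS was -51 bp, against -168 bp for the others, where negative is upstream. Of the 399 promoter summits 37.1% were within 100 bp of the TSS, against 19.7%. Downstream of the TSS, the start itself included, lay 36.3% of them (Wilson 31.8 to 41.2%) against 18.8% (17.2 to 20.4%), and in the replicate lists 34.4%, 32.5% and 37.6% against 19.7%, 19.1% and 18.9%. The ranges of the 3 replicates did not overlap. Without satellites the downstream shares were 37.6% and 18.0%.

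Summits in coding exons were few in number, and nearly all of them were GC-rich. Outside promoters, 27 members (2.37%) had their summit in a coding exon and 2 other peaks did (0.0190%), so that 27 of the 29 such summits (93.1%) were GC-rich; in the genome 84.2% of coding-exon windows are. Of GC-rich genomic windows 29.6% lie in coding exons, and of the other genomic windows 3.73%. The members' share remained far below that 29.6%. It was 1.93% ± 0.494 (SD, n = 3) in the replicate lists, against 0.0321% ± 0.0202, and 19 of the 27 were not satellites. The 5' UTR took 27 members (2.37%) and 49 others (0.465%). The 3' UTR share, 11 members (0.967%) against 76 (0.722%), had an interval of the difference that included 0 (-0.218 to 1.02 points). Introns held 461 members (40.5%) against 51.99%, and intergenic stretches 184 (16.2%) against 22.8%. Both were lower in the GC-rich group in each replicate, with differences of -10.0 ± 0.901 and -5.63 ± 1.54 points (SD, n = 3). Without satellites the intron share was 37.2% against 52.1% and the intergenic share 13.2% against 23.02%. The windows of the genome differ in the same direction. Introns hold 29.6% of GC-rich genomic windows and 45.9% of the other genomic windows, and intergenic stretches hold 24.0% and 30.5%. Whether the lower shares of the members go beyond this was not tested.

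**Figure D3:**
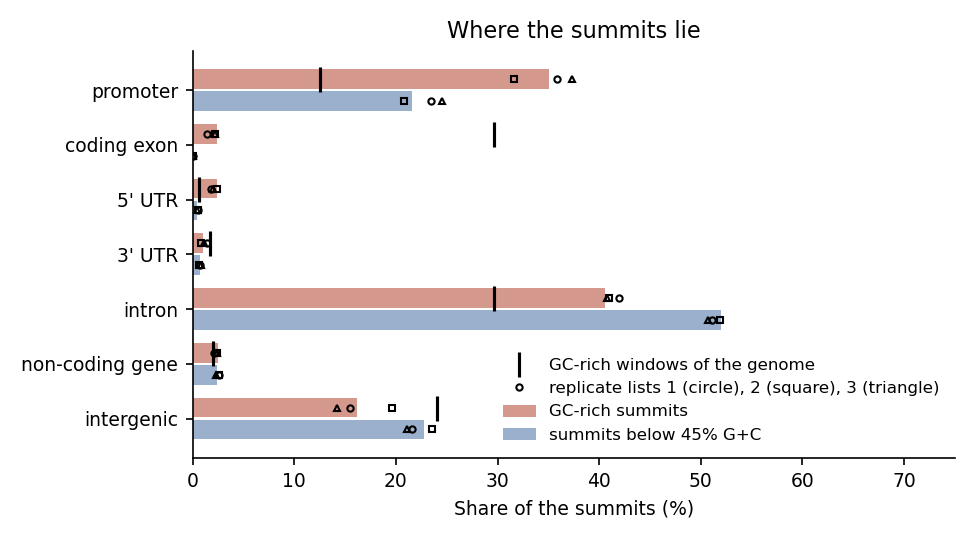
Share of GC-rich (red) and other (blue) summits of the optimal list in each location class, with the 3 replicates' own lists as open symbols and GC-rich windows of the genome as black bars. Promoters hold 35.1% of the GC-rich and 21.6% of the other summits, and coding exons 2.37% of the GC-rich summits, where GC-rich genomic windows have 29.6%.

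The peaks with GC-rich summits were weaker. Their signal ran from 197 to 5008 with a median of 300.1, against a median of 467 and a maximum of 10303 for the others, a ratio of medians of 0.642. In the replicates' own lists the ratio was 0.670, 0.625 and 0.673 (0.656 ± 0.0267, SD, n = 3). Among promoter summits alone the gap was wider, 319 against 627 (ratio 0.509). Across bins of G+C the median signal was 596 below 20%, 349 at 40 to 45%, 310 at 45 to 50%, 291 at 50 to 55%, 299 at 55 to 60% and 287 at 60% or more. It fell from bin to bin up to 55%. At 44 and 45 G or C bases a window, just outside the threshold, the median was 351 and 351. At 46 and 47 bases, just inside, it was 306 and 319. Of the members 59.5% reached the highest −log10 q in the list (4.26), against 79.3%. Without satellites the ratio was 0.633.

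Fewer of them recurred in every replicate. Support from a replicate meant that one of its 11665 strongest peaks covered the optimal summit. All 3 replicates supported 613 members (53.9%) and 7968 others (75.7%), a difference of -21.8 points (-24.8 to -18.8), where 73.6% of the whole list was supported. Of the remaining members 358 were supported by 2 replicates, 152 by 1 and 14 by none. Replicates 1, 2 and 3 supported 81.7%, 81.5% and 74.8% of the members and 90.5%, 88.7% and 89.5% of the others. The optimal list was made from these replicates and each list was called against the same control, per the deposited notes, so that support is not independent evidence. When each replicate's own summits were looked up in both other lists, 56.8%, 50.6% and 59.1% of GC-rich and 76.3%, 77.5% and 75.8% of other summits were found (-21.0 ± 5.25 points, SD, n = 3). Without satellites the difference in the optimal list was -23.2 points, and with replicate lists 2 times as long it was -8.29 points.

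The gap was smaller between peaks of like signal. In quintiles of the optimal list by signal, weakest first, the GC-rich share was 17.8%, 13.5%, 8.66%, 5.57% and 3.13%. Support by all 3 replicates in the same quintiles was 21.2%, 57.3%, 78.2%, 87.7% and 98.6% for members and 19.1%, 73.6%, 90.8%, 91.3% and 95.9% for the others. The intervals of the difference excluded 0 in quintiles 2 and 3 only (-16.3 and -12.6 points), and the mean difference within quintiles was -5.58 points against -21.8 overall. The promoter difference, in contrast, was 17.5, 14.2, 22.7 and 17.2 points in the 4 weaker quintiles and 6.67 (-3.95 to 18.3) in the strongest.

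**Figure D4:**
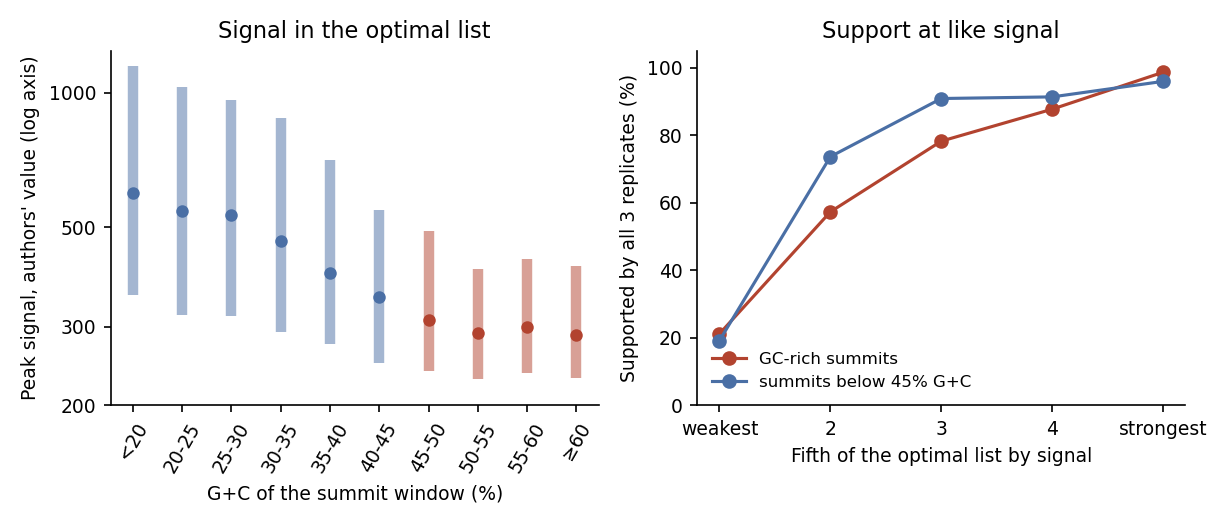
Left, median (points) and interquartile range (bars) of the authors' peak signal by G+C of the summit window, on a log axis, falling from 596 to 287. Right, share of GC-rich (red) and other (blue) summits supported by all 3 replicates in each quintile of signal; the groups differ most in quintile 2, 57.3% against 73.6%.

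Replicate summits were compared with the same 45% threshold that chose the members, so these shares are a description. Members lay nearer to it than the others did, with median G+C of 49.5% against 30.7%. The supporting replicate's own summit also reached 45% G+C in 73.2%, 71.1% and 69.2% of supported members (71.2% ± 1.99, SD, n = 3), whereas summits below 45% stayed below in 97.7% ± 0.210. The displacement was small in both groups, with medians of 15, 19 and 15 bp for members. All 3 replicate summits were GC-rich for 297 of the 613 fully supported members (48.5%). These 297 lay farther from the threshold, with a median G+C of 51.5% against 48.5% for the other 316. They had a median signal of 424, against 367, and 22.9% of them had a stronger summit below 45% within 1 kb, against 53.8%. Among fully supported satellites 43 of 190 (22.6%) were GC-rich in all 3 replicates, and among the other members 254 of 423 (60.05%).

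The strongest members, all supported by all 3 replicates, were at genes of varied function, and none of the first 15 was a satellite. Of these, 6 lay at promoters, 5 in introns, 3 between genes and 1 in a 5' UTR, and in 10 all 3 replicate summits were GC-rich. The strongest was 275 bp upstream of CG13501 (signal 5008), and ranked 71, 37 and 94 in the replicate lists. MFS10, a gene of the major facilitator family of transporters, followed with 4151, with signals of 1091, 1648 and 1427 in replicates 1, 2 and 3, where its summits had 46.5%, 45.5% and 46.5% G+C. The promoter peak of mrt (3597) lay 191 bp upstream of the TSS and had replicate signals of 1008, 1427 and 1166. Each replicate thus had its own GC-rich summit at both promoters. An intron of wde, which encodes a partner of the histone methyltransferase Eggless, held the next (3349), and the promoter of Dp, the partner of E2F, the one after (3245). The peak nearest to CG46467 and Glut4EF (3066) had replicate summits of 42.6%, 44.6% and 38.6%, each below the threshold. The others were at Fbl6 (2577), tara (2515), egh (2514), which encodes a glycosyltransferase, ITP (2423), an ion transport peptide gene, and mub (2380), which encodes an RNA-binding protein. CG43245 (2372), Atat (2309), a tubulin acetyltransferase gene, Unc-76 (2112) and moody (2071), which encodes a receptor of the glial blood-brain barrier, completed the 15. The peak near CG43245 varied most in rank, at 505, 5885 and 485 in replicates 1, 2 and 3, with signals of 696, 153 and 896 and summits of 25.7%, 51.5% and 50.5% G+C. The 3 strongest AT-rich summits, in an intron of ush (10303), at the CG14100 promoter (9844) and in an intron of HmgZ (9554), were all above the strongest member.

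The 4 members highest in G+C were each supported by 1 or 2 replicates, and Hr4 led them at 75.2%. Those named next are the 5 highest among members supported by all 3 replicates, which their choice required. The summit in a coding exon of SelR, a methionine sulfoxide reductase gene, 668 bp from the TSS of CG6574, had 71.3% G+C and a signal of 415, and its replicate summits had 69.3%, 69.3% and 70.3% with signals of 119, 116 and 167. Within that choice, promoter summits at jing (69.3%, signal 276), at the homeobox gene Dll (68.3%, 433) and at the histone demethylase gene Kdm2 (67.3%, 517) followed. That at CG12075 (66.3%, 636) was a satellite, with a stronger summit at -203 bp. In all 5 every replicate summit had at least 56.4% G+C. The strongest coding-exon summit was in the homeobox gene otp (signal 946, 61.4% G+C), followed by l(1)G0196 (459) and sgg (449), the gene of a GSK3 kinase. In 3' UTRs the strongest were in qvr (1477), in Lsd-2 (1224), which encodes a lipid droplet protein, and in the F-box gene Ppa (1169).

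Ribosomal protein genes often had a GC-rich summit where they had a promoter peak. Of 13945 protein-coding genes 2659 had a promoter peak, and 433 of these (16.3%) had a GC-rich one, 284 of them with no promoter summit below 45%. Among the 36 cytoplasmic ribosomal protein genes with a promoter peak, 19 had a GC-rich one (52.8%, Wilson 37.0 to 68.0%), and none of the 19 had an AT-rich one as well. The replicate lists gave 50%, 58.1% and 39.6% (49.2% ± 9.27, SD, n = 3), against 16.8% ± 1.04 over all genes with a promoter peak. None of the 19 was a satellite, and without satellites the count was the same, against 13.8% of all genes. With a G+C threshold of 40% the ribosomal share was 77.8%, against 27.6% of all genes with a promoter peak, and with 50% it was 30.6% against 8.39%. The lists were chosen with results of these data known, so the counts are given as a description with no test.

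Most of the 19 ribosomal summits lay near the start sites. They were 2 to 281 bp from the TSS with a median of 27 bp, and 16 of them within 100 bp. The signal ran from 232 to 575 with a median of 408, below the strongest quintile of the list, which began at 992. RpL14 and RpLP0 reached the next quintile, which began at 552. Of the 19 summits, 10 were supported by all 3 replicates, 7 by 2 and 2 by 1. At RpLP0 the replicate signals were 125, 226 and 180, and at RpL4 they were 129, 111 and 218, each on its own list's scale. RpL14 (signal 575, 19 bp), RpLP0 (562, 33 bp), RpL19 (511, 34 bp), RpS25 (497, 27 bp) and RpL41 (488, 120 bp) were the strongest. The 17 ribosomal protein genes with promoter summits below 45% alone had distances from 0 to 290 bp with a median of 116 bp. Of these 17, 8 lay within 100 bp. The G+C of their strongest promoter summits ran from 18.8 to 44.6% with a median of 34.7%. Their median signal was 409, with a maximum of 1433. The ranges of distance and of signal overlapped, and the difference was not tested. Of translation factor genes, 6 of 11 had a GC-rich promoter summit, led by eIF5B (1467) and eIF4H1 (491). Only that at eIF5B was supported by all 3 replicates, and none of the 6 genes had an AT-rich promoter summit as well.

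**Figure D5:**
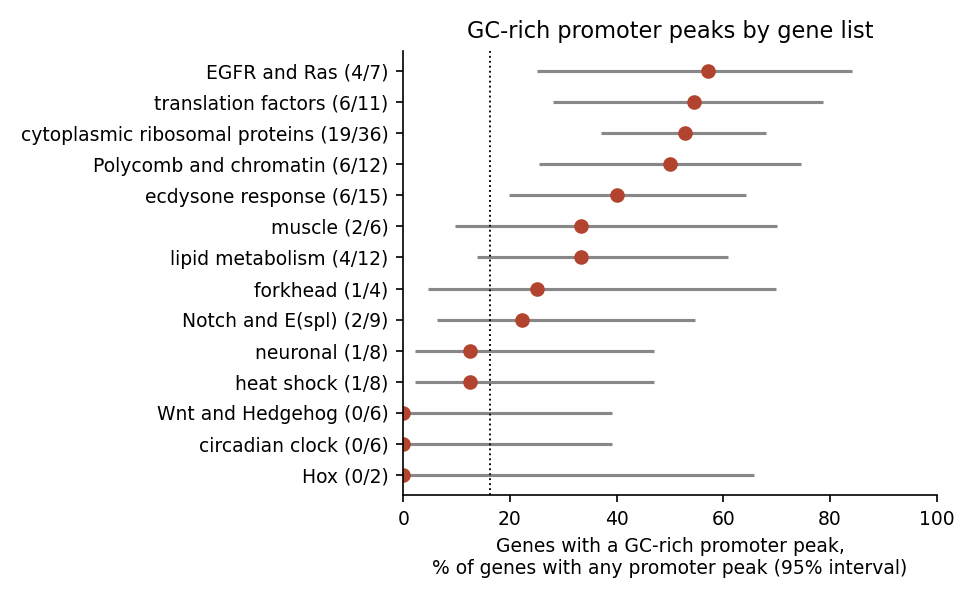
Share of the genes with any promoter peak that had a GC-rich one, by gene list, with counts in brackets and Wilson 95% intervals; the dotted line is the share over all 2659 genes, 16.3%. The ribosomal protein list, 19 of 36, is the largest count.

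Other lists were small. EGFR and Ras genes had 4 of 7, namely aop (signal 1244), which encodes an ETS repressor, pnt (451), an ETS activator gene, and, with weaker summits, spi (262) and rho (227), which encode a ligand and a protease that activates it. AT-rich promoter summits were also present at spi (4276) and aop (237). Polycomb and chromatin genes had 6 of 12, led by Psc (749) and ph-d (509), and ph-d, ph-p and Trl had stronger AT-rich promoter summits too (675, 5087 and 2282). Ecdysone response genes had 6 of 15, and Eip93F (918) was the strongest; of these, Eip75B, Eip63E and tai had a stronger AT-rich promoter summit too. Hr4 (249) had the highest G+C of any member, 75.2%, and was supported by 2 replicates. Lipid metabolism genes had 4 of 12, with Apoltp (610), Lsd-1 (477), Lpin (424) and ACC (266), and Lpin had an AT-rich promoter summit of 4076. The 4 forkhead genes with promoter peaks had 1, fkh (557, 60.4% G+C), and the muscle list had 2 of 6, Tm1 (408, beside an AT-rich one of 926) and Mef2 (398). Notch genes had 2 of 9, numb (317, beside an AT-rich one of 2338) and mib1 (278), the heat shock list 1 of 8, Hsp83 (697), and the neuronal list 1 of 8, futsch (268). The Hox (0 of 2), circadian clock (0 of 6) and Wnt and Hedgehog (0 of 6) lists had none. The summits at Eip63E, numb and Tm1 were satellites. The intervals of 9 of the 14 lists included 16.3%. Support by all 3 replicates was found at 2 of the 6 Polycomb and chromatin genes and 3 of the 6 ecdysone genes. It was found at 3 of the 4 EGFR and Ras genes and 2 of the 4 lipid genes. In the smaller lists it was 1 of 2 for Notch and for muscle, 1 of 1 for forkhead and for neuronal, and 0 of 1 for heat shock.

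Windows were searched on both strands for 20 motifs, which overlap where one holds another. These were GAGAG, the repeat CACACAC, the E-boxes CAGCTG and CACGTG, the BEAF-32 motif TCGATA and the longer TATCGATA, then GGTCACACT, the forkhead words TGTTTAC and TGTTTA, the homeodomain word TAATTA, the word AGATAA as bound by zinc-finger regulators of the serpent type, CAGGTAG as bound by Zelda, and GGGCGG as bound by Sp1 proteins. The others were the repeat GCAGCAGC, TATAAA of core promoters, the run AAAAAAA, the word CTTTGAA as bound by Pangolin, the word TGGGAA, the palindrome TTCCGGAA, and TGACTCA as bound by Fos and Jun. GAGAG, the shortest of the 20 words, was the commonest in the GC-rich windows. It was present, as GAGAG or CTCTC, in 279 members (24.5%, Wilson 22.1 to 27.1%), against 7.94% of the other summits, 14.6% of windows 500 bp away from the members, and 14.7% of GC-rich windows of the genome. In the replicate lists the members' share was 27.0%, 22.7% and 23.3%. Satellites and the other members hardly differed, 24.0% and 24.7%. At promoters it was 27.6%, against 16.5% of GC-rich promoter windows of the genome. The GC-rich regions of the pooled list that fell below the optimal list had it in 18.6%.

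The CA repeat CACACAC was found in 8.004% of members, 1.55% of other summits and 4.01% of GC-rich genomic windows (replicate lists 8.11% ± 1.10, SD, n = 3). A run of 7 A was rarer than in AT-rich summits, 6.77% against 15.6%, and commoner than in GC-rich genomic windows, 2.14%. GGTCACACT was in 7 windows (0.616%, against 0.0854% of GC-rich genomic windows), 6 of them at promoters, and TATCGATA in 6 (0.528% against 0.119%), counts too small for more than a description. Both were in 0 satellites. The forkhead sequence TGTTTAC was in 1.76% of members, 2.28% of other summits and 1.09% of GC-rich genomic windows, and TGTTTA in 6.68%, 14.3% and 3.97%. The Sp1 word GGGCGG was in 7.74% of members and 7.03% of GC-rich genomic windows, and the E-box CAGCTG in 7.65% and 6.84%. TTCCGGAA was in 0 members. In all, 7 of the 20 motifs were more than 1.5 times as frequent in members as in GC-rich genomic windows. A match in a window is a description of its letters and not of a bound factor.

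The share of GC-rich summits was lowest on 2L among the 5 large arms and highest on 2R. It was 8.50% (Wilson 7.37 to 9.77%) on 2L, 11.1% (9.76 to 12.6%) on 2R, 10.3% on 3L, 9.28% on 3R and 9.66% on X. Of all genomic windows on these arms, in the same order, 38.6%, 41.7%, 38.1%, 41.8% and 41.3% were GC-rich. Chromosome 4, which carries CG32006 itself (150764 to 153538, plus strand), had 4 peaks, none of them GC-rich, and no member lay within 5 kb of the gene. With so few peaks the Wilson interval of that share reached 49.0%, and 13.9% of the genomic windows of this chromosome were GC-rich.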

How the data were processed

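Peak lists from CG32006-GFP ChIP-seq in build dm6 were used, 1 for each of 3 replicates and 1 pooled list, each of 30000 regions, and the optimal list thresholded on the irreproducible discovery rate. Each list was called against the same control, per the deposited notes, and that control was not analysed here. Not given in the sources used here were aligner, peak caller, read depth and threshold. The signal value, the −log10 q and the summit offset of each peak are as the authors deposited them, and the scale of the signal is not stated. Adding the offset to the start gave the summit, and the 9 offsets past a peak's end were kept as given, none of them a member. The dm3 lists were not used, since no dm3 genome was used here.

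G+C, soft-masking and motifs were read from the RefSeq Release 6 genome, and locations from the Ensembl gene annotation (release 115), with promoters (500 bp) taking precedence over coding exons, then UTRs, introns, non-coding genes and intergenic sequence. Replicates were compared by their 11665 strongest rows. Shares have Wilson and differences Newcombe 95% intervals, which cover counting error only. Replicate values are mean ± SD (n = 3) with exact two-sided sign-flip permutation tests, and p-values measure only the spread between these samples, as nothing beyond the label says how separate they were.

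Named peaks were the 15 strongest and the 5 highest in G+C supported by all 3 replicates, the 3 strongest in coding exons and in 3' UTRs, up to 5 members of each of 14 gene lists and the 3 strongest AT-rich summits. Some list members beyond these were named after their values were seen. The members, lists and tests were chosen with earlier results of these data known, and the division by satellites was added after the data were seen. Of 372 list symbols 8 had no match. Scripts were tested on simulated data and used Python 3.11.15, numpy 2.4.6, pandas 2.3.3, scipy 1.17.1 and matplotlib 3.10.9. Alternatives were other thresholds, windows, distances, overlap rules and lists, and ignoring each replicate in turn. The optimal list and its signal were not remade without that replicate.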

Additional observations from a re-analysis of the deposited data

How the results depend on the processing

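Of 87 alternative values, 50 moved by less than 1 SD of the replicate lists, 37 moved by more and 0 reversed. The GC-rich share of 9.75% became 18.2% with a threshold of 40%, 4.83% with 50%, 13.1% in windows of 25 bp and 8.28% in windows of 100 bp to either side of the summit, 4.92% in the strongest 50% of peaks and 7.61% without satellites. It was 10.7% and 11.2% in the lists of replicates 1 and 2, and leaving out 1 replicate gave 10.2 to 10.99%. The promoter difference of 13.5 points became 10.6 with a threshold of 40%, 16.2 in the strongest 50% of peaks, 11.98 within 200 bp and 17.9 within 1000 bp of the TSS, 15.7 as the mean within quintiles of signal (added after seeing the data) and 19.95 without satellites. The signal ratio of 0.642 became 0.671 and 0.669 in the short and long windows. It was 0.792 in the strongest 50% of peaks and 0.509 at promoters alone. Among optimal peaks supported by 2 given replicates, whatever the other, it was 0.641 to 0.671. The signal there was still the pooled one, made from all 3 replicates. The support difference of -21.8 points became -5.58 in the strongest 50% of peaks and also -5.58 as the mean within quintiles, -8.29 with replicate lists of 2 times the length, -15.0 with rows of −log10 q of at least 2 and -12.7 with a reciprocal overlap of 50%. It was -18.8 to -14.8 points when support from only 2 given replicates was asked for, a less strict requirement on the same optimal list. The coding-exon difference ranged from 1.01 to 3.65 points over 10 alternatives and the GAGAG share from 20.8 to 27.1%. The ribosomal share of 52.8% ranged from 30.6 to 77.8%, the extremes with thresholds of 50% and 40%. The cause of these shifts was not tested. Depth is unknown, and pooled signal has no replicate error.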

Other observations

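Among all words of 7 bases found in at least 30 members, those most frequent relative to GC-rich windows of the genome were chosen after their values were seen. CGCTCTC led with 82 members (7.21%, against 1.81% of GC-rich genomic windows and 0.494% of the AT-rich summits), and was in 6.69% ± 0.862 (SD, n = 3) of the GC-rich windows of the replicate lists. Next were AGTGAGA (3.52% of members, against 0.887%), AGAGAGC (6.33% against 1.62%) and CTCTCTC (6.60% against 1.72%), and apart from AGTGAGA all of these contain GAGAG on one of the strands. ACAGTGG does not contain it, and was in 66 members (5.80% against 1.55%, replicate lists 5.70% ± 0.643, SD, n = 3).

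GC-rich summits were soft-masked, meaning marked as repeats, in 10.7% of their bases, against 25.05% for AT-rich summits and 9.65% for GC-rich windows of the genome. The ratio of observed to expected CpG was 0.990 in members, 0.836 in AT-rich summits and 0.893 in GC-rich windows of the genome, with 0.972 ± 0.0153 (SD, n = 3) for the members of the replicate lists. It was 0.954 in the satellites and 1.005 in the other members.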
